A study of Mus musculus with 17 samples.

Results

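Bezafibrate-fed insulin-deficient mice (STZ,BEZ) and control mice (Con,SD) were compared here by the mRNA levels of their skeletal muscle. The members were set by their labels, as the 5 arrays of STZ,BEZ muscle and the 7 arrays of Con,SD muscle. They are 12 of the 17 arrays of the series. The members and the gene lists below were chosen with earlier results of these data known. The remaining 5 arrays hold muscle of insulin-deficient mice without the drug (STZ,SD). They shared the fit, its estimate of spread and the choice of probe set with the other arrays. Beside the main comparison they gave values and a direct test against STZ,BEZ. All mice were wildtype C57BL/6N males whose muscle was taken at 5 to 6 months of age, so the groups shared genotype, sex and strain. STZ,BEZ and STZ,SD mice had been injected intraperitoneally with streptozotocin, which destroys the pancreatic beta cells and so removes most insulin, at 65 mg/kg on 5 consecutive days when 10 to 16 weeks old. Con,SD mice were given citrate buffer by the sample labels, whereas the study's methods call them untreated and name a lower streptozotocin dose. STZ,BEZ mice ate standard diet with bezafibrate at 0.25% or 0.5% (w/w) for 8 weeks, beginning 2 weeks after streptozotocin. The labels name both strengths without tying one to a mouse, the study's methods name only the higher one, and neither names the muscle that was taken. Con,SD and STZ,SD mice ate standard diet without the drug. The STZ,BEZ mice therefore differ from Con,SD mice by both streptozotocin and bezafibrate, and the parts of these 2 agents in a difference cannot be told apart within this comparison.

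Bezafibrate belongs to the fibrates, a class of lipid-lowering drugs. Its targets are the peroxisome proliferator-activated receptors (PPARs), nuclear receptors that bind fatty acids, pair with retinoid X receptors and raise genes of fatty acid uptake, omega-oxidation, peroxisomal and mitochondrial beta-oxidation. Insulin acts in muscle through its receptor, the substrates Irs1 and Irs2 and the kinase Akt, which moves glucose transporters to the surface, promotes protein synthesis and keeps FoxO factors out of the nucleus. When insulin is lacking, FoxO factors raise genes of proteolysis and fuel switching. The liver X receptors (LXRs), which sense oxysterols, raise sterol exporters and the gene of the lipogenic factor SREBP-1.

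Each array gave a log2 expression value for 35556 probe sets of a whole-transcript array, normalised together by the study with the robust multi-array average (RMA). After 1 probe set per gene was kept, 19938 genes were tested, with values between 2.76 and 14.6 and array medians between 6.22 and 6.32. A difference of 1 in these values is a 2-fold difference. The mean level of 14 genes that define skeletal muscle, among them Acta1, Ckm and Ttn, lay between 12.9 and 13.1 on every array. Every array thus held muscle RNA, but this level cannot show that other tissue was absent. The mean correlation with the other arrays of its group was 0.969 for Con,SD array 1 and 0.985 for Con,SD array 4, against 0.988 to 0.989 for the other 5 controls and 0.994 to 0.995 for the STZ,BEZ arrays. Con,SD array 1 also carried the highest level of 17 hepatocyte markers, 11.55 against 7.37 to 9.62 on the other control arrays and 7.46 to 8.17 on the STZ,BEZ arrays. It was highest too for 15 testis markers, 8.27 against 5.28 to 5.86. On this array the hepatocyte marker Alb read 13.79 (10.87 to 13.02 on the other controls) and the testis marker Prm2 12.05 (6.75 to 8.59). The part of other tissues in the extracts was not tested. Counts of 0 or 1 in a gene list are those of the fit to all arrays, and several of them changed by 1 when an array was left out. In whole muscle, fewer cells of a type and less RNA per cell cannot be told apart.

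Muscle of STZ,BEZ mice differed from control muscle in 4298 of the 19938 genes (limma's moderated test, Benjamini-Hochberg adjusted p under 0.1), which is 21.6% of them. Of these, 2614 genes were higher (13.1% of the genes tested) and 1684 were lower (8.45%). At an unadjusted p under 0.05, 3311 genes were higher and 2587 lower. The differences were mostly small, with a median size of 0.28 on the log2 scale among the called genes. A difference of 1.5-fold or more was reached by 149 higher and 144 lower genes, and 2-fold or more by 34 and 57. All 5 STZ,BEZ arrays lay above all 7 control arrays in 1198 genes (6.01%) and below them in 499 genes (2.5%). The called and non-overlapping shares over all genes are the background for the list counts below. The median difference over all genes was -0.01. The share of higher genes among those called was 60.8%, but 49.4% without Con,SD arrays 1, 3 and 4 and 51.2% with the hepatocyte level as a covariate. Con,SD array 1 stood apart from its group, but array 3 correlated with the other controls at 0.988. Array 4 had the lowest hepatocyte level of the controls (7.37), whereas array 2, which was kept, read 9.62. Leaving out arrays 1, 3 and 4 was thus an alternative fit and not a removal of arrays shown to be faulty. In that alternative 1569 genes were higher and 1609 lower. A list's smaller count of higher members in that setting therefore stands beside fewer higher calls over all genes. Tested directly, STZ,BEZ muscle differed from STZ,SD muscle in 4 genes (0.0201% of those tested), namely Scd1, Scd2, Srebf1 and Lpcat3, with 707 genes higher and 427 lower at an unadjusted p under 0.05. Significance analysis of microarrays (SAM), the test the study names, was run here in a separate implementation with 100 permutations on 1 probe set per gene. It called 24 genes in that direct comparison.

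**Figure D1:**
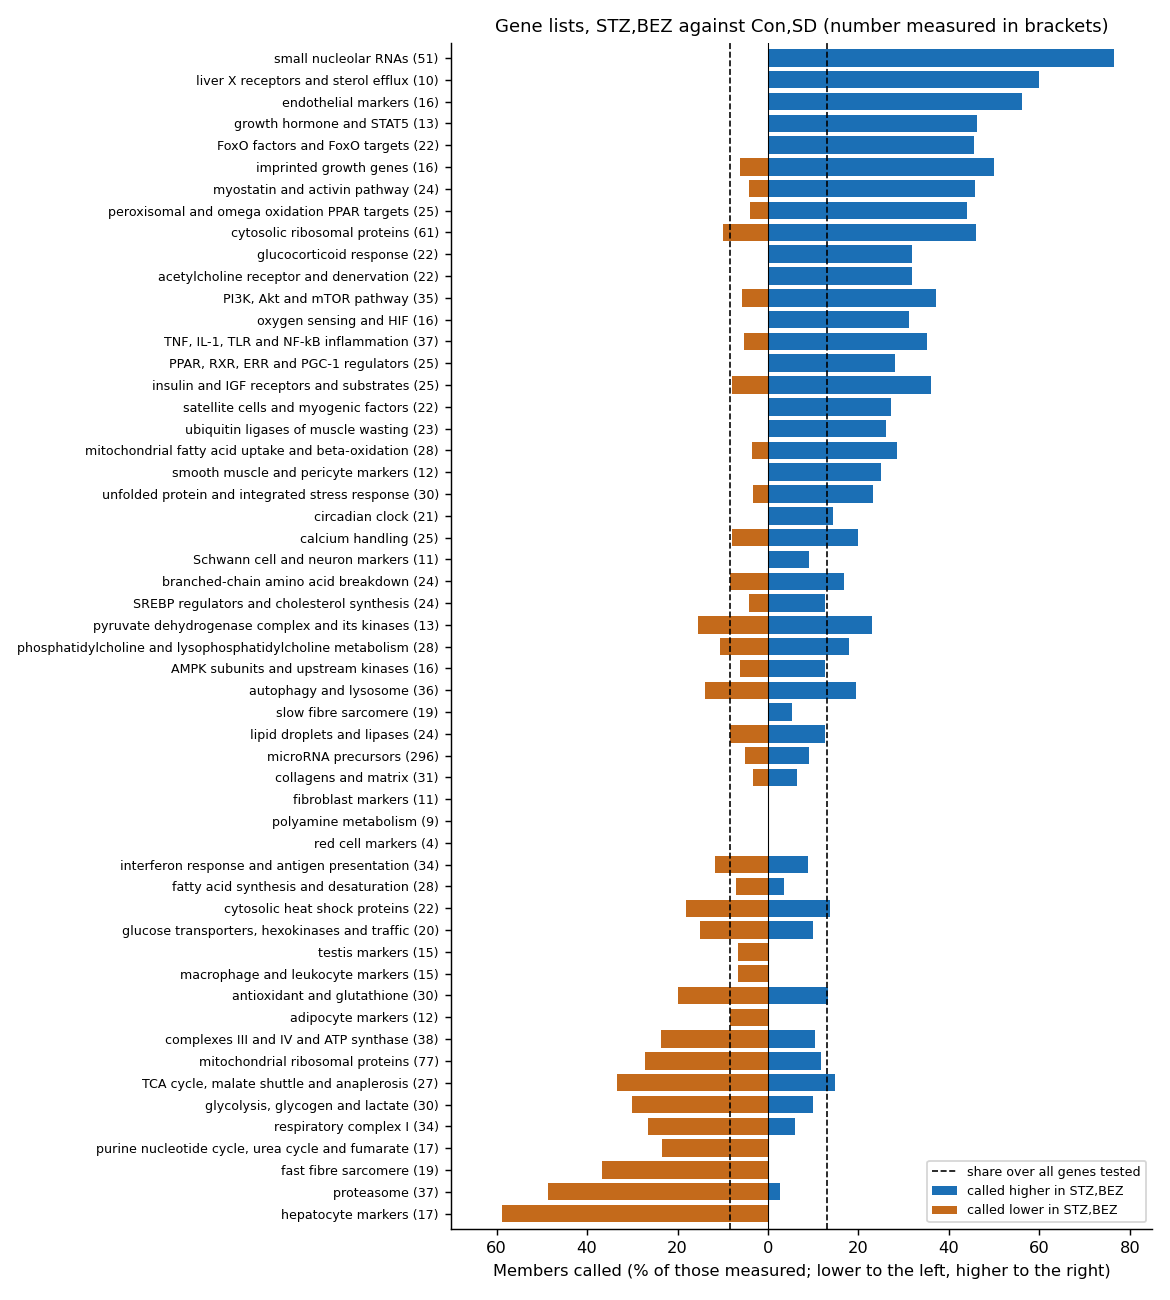
Share of the measured members of 54 gene lists that were called higher (to the right, blue) or lower (to the left, orange) in STZ,BEZ against Con,SD muscle, as a percentage of the members measured, with that number in brackets. Dashed lines give the shares over all 19938 genes tested, 13.1% higher and 8.45% lower. Small nucleolar RNAs stand at one end, with 39 of 51 higher, and hepatocyte markers at the other, with 10 of 17 lower.

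Several genes of sterol export and the gene of SREBP-1 were higher in STZ,BEZ than in control muscle. Of 10 measured genes of the LXR and sterol efflux list, 6 were higher and 0 lower, beside 13.1% and 8.45% of all genes, and the median difference was 0.24. Without Con,SD arrays 1, 3 and 4, 4 were higher. Abca1, which exports cholesterol to apolipoprotein A-I, read 8.20 to 8.79 (median 8.48) in control muscle and 9.47, 9.88, 9.41, 9.65 and 9.85 in STZ,BEZ muscle. The groups did not overlap, and the difference was 1.18 ± 0.16 (SE, n = 5 and 7; adjusted p = 0.000158, limma), or 2.27-fold. Abcg1, its partner that loads cholesterol onto high-density lipoprotein, read 6.86 to 7.34 (median 7.17) against 7.65, 7.80, 7.60, 7.53 and 7.54. It was again higher on every STZ,BEZ array, by 0.48 ± 0.08 (adjusted p = 0.000837). Mylip, a ubiquitin ligase that marks the LDL receptor for breakdown, read 8.83 to 9.20 (median 9.02) against 9.54, 9.74, 9.42, 9.38 and 9.74, without overlap, and rose by 0.56 ± 0.09 (adjusted p = 0.000483). The direct differences of STZ,BEZ from STZ,SD were 0.91 for Abca1, 0.43 for Abcg1 and 0.45 for Mylip. None of these was called (adjusted p = 0.221, 0.298 and 0.298, limma). Pltp, a phospholipid transfer protein chosen after its values were seen, was higher by 0.30 ± 0.11 (adjusted p = 0.079) but by 0.19 and no longer called without Con,SD arrays 1, 3 and 4. Pltp also lost its call without any single one of Con,SD arrays 3, 4 and 5 and STZ,BEZ arrays 1, 2 and 3 (0.23 to 0.30).

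The bases before the start of Abca1 are shown because this gene had the largest difference of the LXR list. They cover chr4:53159896-53160145 of GRCm38.p6 on the minus strand (RefSeq), 250 bases that end just before the start of the transcript. Capitals mark the E-box CACGTG, letters bound by SREBP, clock and other basic helix-loop-helix factors.
Abca1: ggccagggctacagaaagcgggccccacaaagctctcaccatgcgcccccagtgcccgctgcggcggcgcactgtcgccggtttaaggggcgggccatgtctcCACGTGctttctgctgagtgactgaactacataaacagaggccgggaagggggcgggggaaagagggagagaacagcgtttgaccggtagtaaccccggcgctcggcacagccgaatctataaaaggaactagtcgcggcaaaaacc
Abca1 was the 1 member with an E-box among the 5 higher genes of the LXR list that had a window of 300 bases. Over all tested genes with a window, 9.5% held an E-box, and binding was not tested.

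Srebf1, which encodes SREBP-1 and is itself a target of LXRs and insulin, stood above the controls in all 5 STZ,BEZ mice. It read 8.71 to 9.22 (median 8.90) in control muscle, 9.97, 9.97, 9.73, 9.70 and 9.60 in STZ,BEZ muscle and 8.28 to 9.12 in STZ,SD muscle. STZ,BEZ thus lay above both other groups, by 0.88 ± 0.12 over Con,SD (adjusted p = 0.000206, 1.84-fold) and by 1.16 over STZ,SD (adjusted p = 0.000732). Lpcat3, which places polyunsaturated fatty acids into lysophospholipids, read 9.38 to 9.82 (median 9.64) in controls, 9.88, 10.10, 9.84, 10.01 and 10.01 in STZ,BEZ and 9.12 to 9.56 in STZ,SD muscle. It too was higher than Con,SD (0.35 ± 0.08, adjusted p = 0.00618) and STZ,SD (0.63, adjusted p = 0.00457), with no overlap to either group. Scap, the escort of SREBP to the Golgi, was higher by 0.31 ± 0.07 (adjusted p = 0.00568). Insig1, the anchor that holds SCAP back and an SREBP target, gave a difference of -0.07 (95% interval -0.42 to 0.28; adjusted p = 0.817), and 0.08 without Con,SD array 1. Of the 24 measured genes of SREBP regulation and cholesterol synthesis, 3 were higher and 1 lower (12.5% and 4.17%), not above the shares over all genes. The median difference was -0.03. There were 2 lower without Con,SD array 3 or 4 and 0 lower without any of Con,SD array 2 and STZ,BEZ arrays 1, 2, 4 and 5. Within the 28 genes of phosphatidylcholine and lysophosphatidylcholine metabolism 5 were higher and 3 lower (17.9% and 10.7%, median -0.03), near the shares over all genes. Without any of STZ,BEZ arrays 3, 4 and 5 and Con,SD arrays 3 and 4 there were 2 or 3 higher, and without STZ,BEZ array 2 there was 1 lower. This list had 2 higher and 4 lower without Con,SD arrays 1, 3 and 4.

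**Figure D2:**
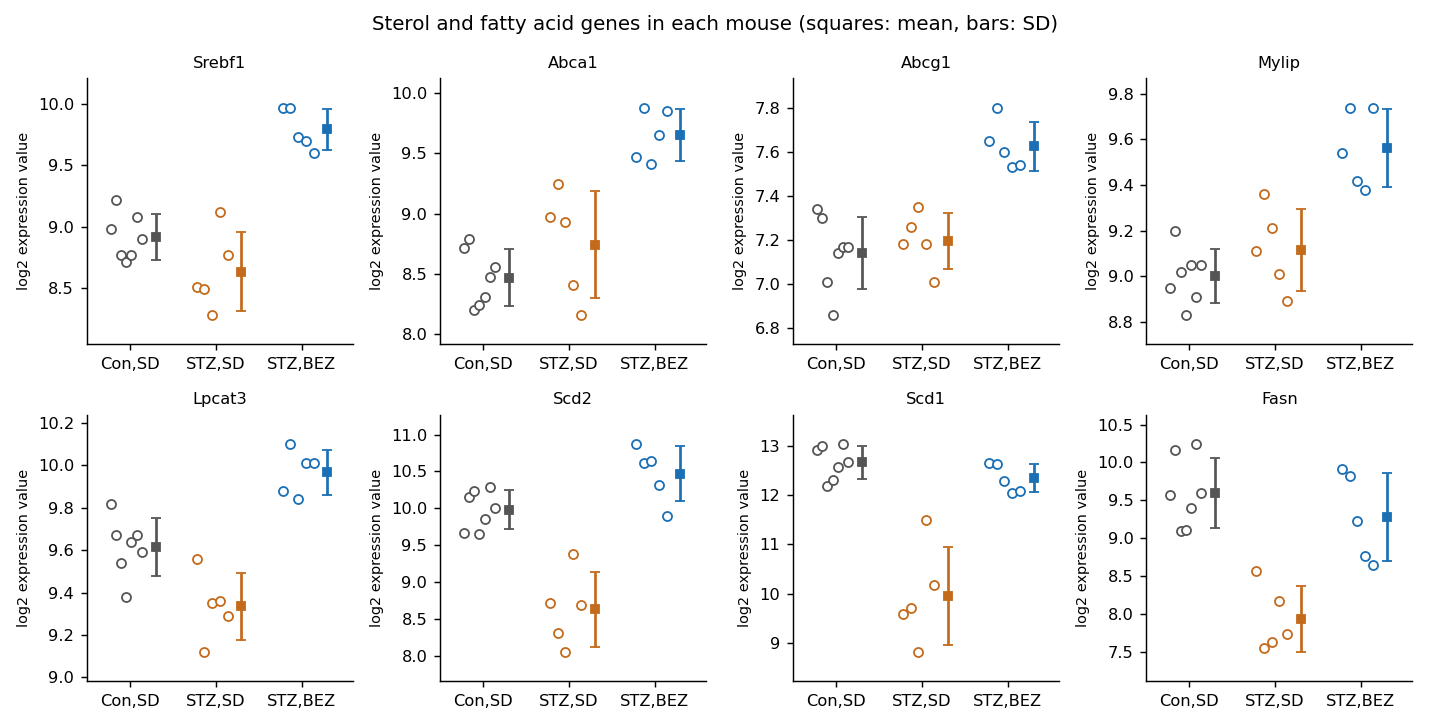
Log2 expression value (vertical axis) of 8 sterol and fatty acid genes on each array of Con,SD (7), STZ,SD (5) and STZ,BEZ (5) muscle; squares and bars are the mean and SD of each group. Srebf1, Abca1, Abcg1, Mylip and Lpcat3 lie above every control array in STZ,BEZ muscle, whereas Scd1 and Fasn lie within or near the control range and well above most STZ,SD arrays.

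Against Con,SD muscle, the enzymes that make fatty acids did not rise with Srebf1. Of 28 genes of fatty acid synthesis and desaturation, 1 was higher and 2 were lower, and the median difference was -0.04. Without Con,SD array 1, 5 were higher and 3 lower, and with the hepatocyte level as a covariate 4 were higher and 0 lower. Leaving out any of Con,SD array 6, STZ,SD arrays 1, 3 and 4 and STZ,BEZ arrays 4 and 5 gave 2 or 3 higher, and without any of Con,SD array 2 and STZ,BEZ arrays 2, 4 and 5 there was 1 lower. Scd1, which puts a double bond into stearate and palmitate, read 12.19 to 13.03 (median 12.67) in controls and 12.65, 12.63, 12.29, 12.05 and 12.08 in STZ,BEZ mice. These ranges overlapped, with a difference of -0.32 (95% interval -0.96 to 0.32; adjusted p = 0.504), while STZ,BEZ exceeded STZ,SD by 2.39 (adjusted p = 0.00457). Scd2, a second desaturase of this family, read 9.65 to 10.29 (median 10.01) against 10.87, 10.62, 10.64, 10.32 and 9.90. Arrays 1 to 4 lay above the controls and array 5 within them, so the difference of 0.49 ± 0.20 had an adjusted p of 0.103, and it was called when STZ,BEZ array 5 (0.63) or Con,SD array 6 (0.54) was left out. The same held when either of STZ,SD arrays 3 and 4 was (0.49). Fasn, the fatty acid synthase, read 9.09 to 10.24 (median 9.57) against 9.91, 9.82, 9.23, 8.76 and 8.65, and its difference of -0.32 spanned -0.86 to 0.21 (adjusted p = 0.417). For Fasn this was -0.19 without STZ,BEZ array 4 or with the replicate block, -0.17 without STZ,BEZ array 5 and -0.58 without Con,SD arrays 1, 3 and 4, never called. Acacb, whose malonyl-CoA restrains entry of fatty acids into mitochondria, was the member called higher, by 0.43 ± 0.09 (adjusted p = 0.00287), without overlap. Dgat2, which forms triglyceride, was lower by -0.61 ± 0.19 (adjusted p = 0.0352), but not called with the hepatocyte level as a covariate (-0.43). Against STZ,SD muscle, 2 of the 28 genes were called and the median difference was 0.23. At an unadjusted p under 0.05 (limma), 9 were higher and 0 lower, beside 707 and 427 of all 19938 genes. Fasn exceeded STZ,SD by 1.35 (adjusted p = 0.298).

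The PPAR targets of omega-oxidation and the peroxisome were higher in STZ,BEZ muscle, with array 5 far above the other 4. Of 25 genes on this list, 11 were higher and 1 was lower, and the median difference was 0.19. Without STZ,BEZ array 5, 7 remained higher. Cyp4a14, a fatty acid omega-hydroxylase, read 5.25 to 5.91 (median 5.66) in controls and 7.32, 7.14, 6.86, 6.89 and 9.96 in STZ,BEZ mice. It was higher on all 5 arrays, by 2.02 ± 0.37 (adjusted p = 0.00167, 4.07-fold), and by 1.44, still called, without array 5. Cyp4a10, its close relative, read 5.40 to 6.10 (median 5.69) against 6.38, 6.34, 6.28, 6.45 and 8.10. The groups did not overlap, and the difference was 0.99 ± 0.24 (adjusted p = 0.0101) with array 5 and 0.64 without it. Probe sets of such near-identical family members may share signal. STZ,SD muscle read 5.48 to 6.08 for Cyp4a14 and 5.28 to 5.78 for Cyp4a10, inside or near the control ranges, and the direct difference of STZ,BEZ from STZ,SD was 1.91 (adjusted p = 0.298) and 1.12 (adjusted p = 0.433).

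Within the peroxisome itself, Ehhadh, the bifunctional enzyme of peroxisomal beta-oxidation, read 7.18 to 8.44 (median 7.39) in controls and 8.18, 7.89, 7.76, 7.96 and 9.52 in STZ,BEZ muscle. Con,SD array 1 gave the 8.44, so the groups overlapped, and the difference of 0.75 ± 0.25 (adjusted p = 0.0522) was 0.44 and no longer called without STZ,BEZ array 5, and not called with the replicate block (0.66). With the hepatocyte level as a covariate Ehhadh differed by 1.14. Pex11a, which divides peroxisomes, read 8.05 to 8.37 (median 8.15) against 8.39, 8.72, 8.56, 8.67 and 8.83, without overlap (0.43 ± 0.08, adjusted p = 0.00218). Crat, which moves acyl groups to carnitine, rose by 0.30 ± 0.05 (adjusted p = 0.000865), again without overlap. The mean level of the 25 genes was 7.87, 7.93, 7.76, 7.90 and 8.46 in STZ,BEZ muscle and 7.48 to 8.09 in controls, where array 1 was the highest. The arrays with the highest list level in each group, Con,SD 1 and STZ,BEZ 5, also had the highest hepatocyte level of their group, 11.55 and 8.17. The part of liver transcripts in these values was not tested for single arrays. When that level entered the fit as a covariate, 14 of the 25 genes were higher.

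**Figure D3:**
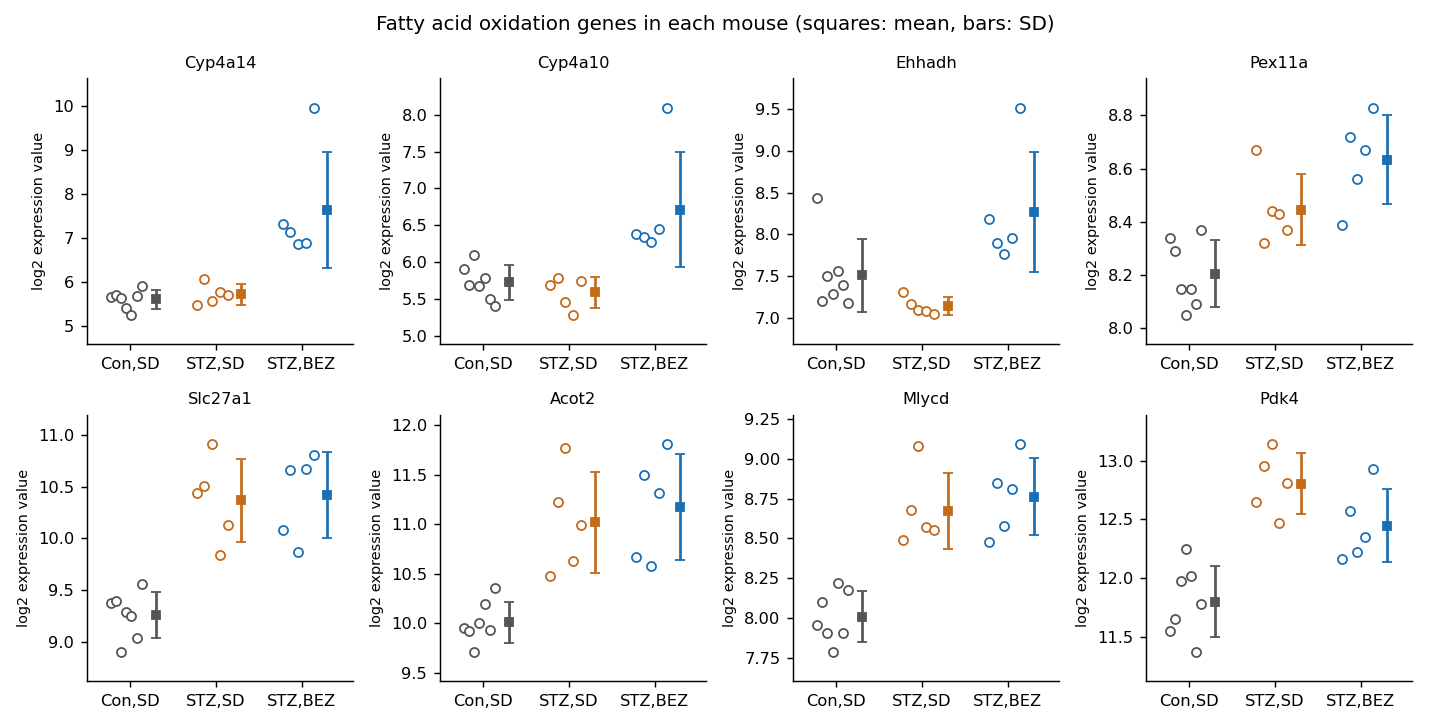
Log2 expression value (vertical axis) of 8 genes of fatty acid oxidation and fuel choice on each array; squares and bars are the mean and SD of each group. Cyp4a14, Cyp4a10 and Ehhadh are at the control level in STZ,SD muscle and higher in STZ,BEZ muscle, with array 5 highest, whereas Slc27a1, Acot2 and Mlycd are above the controls in STZ,BEZ muscle and Pdk4 touches their range on arrays 1 and 3.

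Genes of mitochondrial fatty acid use were also higher. Of 28 such genes, 8 were higher and 1 was lower (median 0.16), with 8 higher without Con,SD arrays 1, 3 and 4 and 2 lower without Con,SD array 6. Slc27a1, a fatty acid transport protein of muscle, read 8.90 to 9.56 (median 9.29) in controls and 10.08, 10.66, 9.87, 10.67 and 10.81 in STZ,BEZ muscle. All 5 values lay above the controls, by 1.16 ± 0.18 (adjusted p = 0.000467, 2.24-fold). Acot2, a mitochondrial acyl-CoA thioesterase, read 9.71 to 10.36 (median 9.95) against 10.67, 11.50, 10.58, 11.32 and 11.81, a rise of 1.17 ± 0.22 (adjusted p = 0.00175) without overlap. Mlycd, which removes malonyl-CoA, rose by 0.75 ± 0.11 (adjusted p = 0.000374). STZ,SD muscle exceeded the controls by 1.11 for Slc27a1, 1.01 for Acot2 and 0.66 for Mlycd, and STZ,BEZ differed from STZ,SD by 0.05, 0.16 and 0.09 (adjusted p = 0.997 for each). Acadl, a long-chain acyl-CoA dehydrogenase, and Cd36, a fatty acid translocase, were chosen after their values were seen and were higher by 0.77 ± 0.16 (adjusted p = 0.00382) and 0.47 ± 0.12 (adjusted p = 0.0119).

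Several widely used PPAR targets did not pass the test in this muscle. Ucp3, an uncoupling protein, gave a difference of -0.02 (95% interval -0.35 to 0.32). Cpt1a, a carnitine palmitoyltransferase, gave 0.04 (-0.33 to 0.40), or 0.19 without Con,SD array 1. Angptl4, which inhibits lipoprotein lipase, gave 0.21 (-0.15 to 0.58), with 0.10 without STZ,BEZ array 5 and 0.34 without Con,SD array 2. Plin2, a coat protein of lipid droplets, gave -0.23 (-0.48 to 0.02). For the receptors, Ppara gave -0.08 (-0.47 to 0.31), or 0.05 without Con,SD array 1, and Pparg -0.01 (-0.32 to 0.29). Of 25 PPAR, RXR, ERR and PGC-1 regulators, 7 were higher and 0 lower (median 0.11), 4 without any of STZ,BEZ arrays 2, 3 and 5, and 3 without Con,SD arrays 1, 3 and 4. Sirt1, a deacetylase of PGC-1α, read 7.14 to 7.56 (median 7.32) against 7.70, 7.92, 7.79, 8.07 and 7.96, without overlap (0.53 ± 0.10, adjusted p = 0.00147), and Gabpa, a factor for nuclear genes of mitochondria, rose by 0.25 ± 0.05 (adjusted p = 0.00486). Ppargc1a, the coactivator PGC-1α, gave 0.12 (-0.01 to 0.26; adjusted p = 0.213), but 0.24 and a call when its probe sets were averaged.

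At the gate between glycolysis and the mitochondrion, kinases of pyruvate dehydrogenase were higher and a subunit of the enzyme was lower. Pdk4, the kinase that rises in fasting and diabetes, read 11.37 to 12.25 (median 11.78) in controls and 12.16, 12.57, 12.22, 12.35 and 12.93 in STZ,BEZ muscle. The ranges touched on arrays 1 and 3, and the difference was 0.65 ± 0.15 (adjusted p = 0.00916). In STZ,SD muscle Pdk4 read 12.47 to 13.14, and STZ,BEZ differed from STZ,SD by -0.36 (adjusted p = 0.87). Pdk1 read 8.29 to 8.47 (median 8.35) against 8.64, 8.76, 8.73, 8.64 and 8.52, without overlap (0.28 ± 0.06, adjusted p = 0.00255), while STZ,SD muscle read 8.30 to 8.47. Pdhb, a subunit of the dehydrogenase, was lower by -0.51 ± 0.11 (adjusted p = 0.00527). Of 13 genes of the complex and its kinases 3 were higher and 2 lower (median -0.02), and 1 was lower without any of Con,SD arrays 3 and 7 and STZ,BEZ arrays 1, 2 and 5, or without Con,SD arrays 1, 3 and 4 together. Among 24 genes of lipid droplets and lipases 3 were higher and 2 lower (median 0.04), shares near the background, with 5 higher without STZ,SD array 2 or 5 and 1 lower without any of STZ,BEZ arrays 2, 4 and 5. The higher ones included Pnpla2, the main triglyceride lipase (0.68 ± 0.16, adjusted p = 0.00738), and Plin5, which tethers droplets to mitochondria (0.50 ± 0.12, adjusted p = 0.00844), both without overlap.

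**Figure D4:**
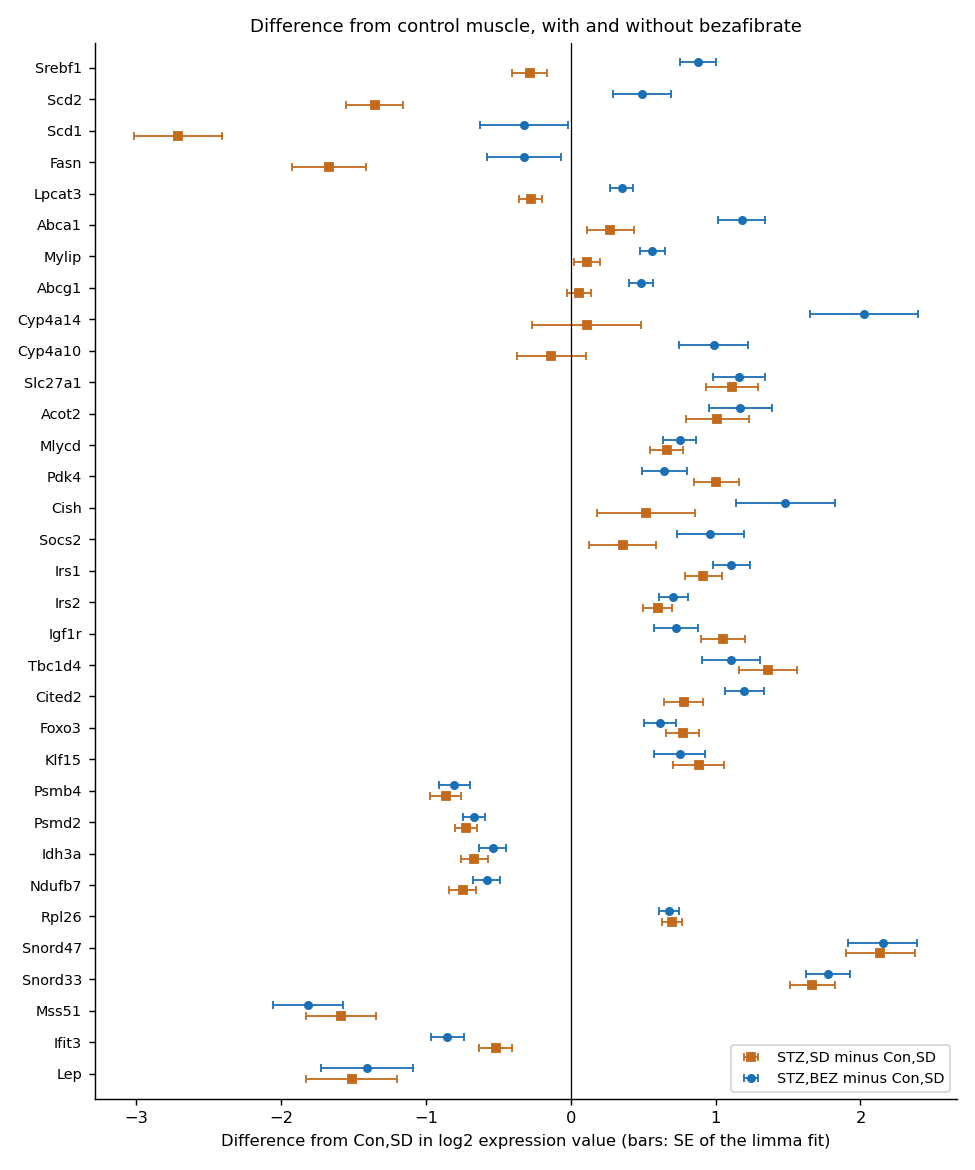
Difference from Con,SD muscle in log2 expression value (horizontal axis, bars are the SE of the limma fit) for 33 genes in STZ,BEZ muscle (blue circles) and STZ,SD muscle (orange squares); both are taken from the same 7 control arrays. The circles and squares lie far apart for Srebf1, Scd1, Scd2, Fasn, Cyp4a14 and Cyp4a10 and close together for most other genes, such as Irs1, Psmb4 and Snord47.

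The insulin and IGF genes included some of the strongest differences from control muscle. Of 25 receptors, substrates and binding proteins, 9 were higher and 2 lower (median 0.08), and 6 were higher without Con,SD arrays 1, 3 and 4. Irs1, the main insulin receptor substrate of muscle, read 8.75 to 9.44 (median 8.98) in controls and 10.36, 10.35, 10.18, 10.20 and 9.97 in STZ,BEZ muscle. All 5 values lay above the controls, and the difference was 1.11 ± 0.13 (adjusted p = 3.3e-05, 2.15-fold), or 0.50 when its probe sets were averaged. Irs2 read 7.56 to 7.86 (median 7.67) against 8.11, 8.37, 8.57, 8.57 and 8.41, without overlap (0.71 ± 0.10, adjusted p = 0.00021). Igf1r, the receptor of insulin-like growth factor 1, read 7.52 to 7.99 (median 7.78) against 8.29, 8.49, 8.18, 8.61 and 8.82, again without overlap (0.73 ± 0.15, adjusted p = 0.00402). Insr, the insulin receptor, was higher by 0.27 ± 0.09 (adjusted p = 0.0499) but by 0.22 and not called without STZ,BEZ array 5, nor with the replicate block (0.24). Igfbp3, which binds the growth factors, and Grb14, an adaptor that inhibits the insulin receptor, were chosen after their values were seen and differed by 0.96 ± 0.21 (adjusted p = 0.00527) and -0.70 ± 0.16 (adjusted p = 0.00697).

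The bases before the start of Irs1 are shown because it had the smallest adjusted p of the insulin list and also holds an E-box. They cover chr1:82291440-82291689 of GRCm38.p6 on the minus strand (RefSeq), and capitals mark the E-box CACGTG.
Irs1: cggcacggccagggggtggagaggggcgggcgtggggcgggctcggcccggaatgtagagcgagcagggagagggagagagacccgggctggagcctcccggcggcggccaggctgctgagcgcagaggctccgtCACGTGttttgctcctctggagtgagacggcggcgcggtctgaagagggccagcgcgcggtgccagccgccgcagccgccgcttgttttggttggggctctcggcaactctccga
The 6 letters of the E-box read the same on both strands and were found in 7.15% of all RefSeq windows, in 9.5% of the 15614 tested genes with a window, in 238 of the 2024 higher genes with a window (11.8%) and in 121 of 1363 lower genes (8.88%). Irs1 and Irs2 were the 2 of 8 higher genes of the insulin list with a window that held it. The PPAR-binding letters AGGTCA were found in 16.3% of all windows, in 13% of the windows of higher and in 17.3% of those of lower genes. They were in 2 of 7 higher peroxisomal genes with a window (Acot3 and Cat). The sterol site TCACCCCAC was in 0.395% of higher and 0.634% of tested genes, and in 0 of 5 higher genes of the LXR list. The FoxO site TGTTTAC was in 3.85% and 3.54%, and in 1 of 8 higher genes of the FoxO list. The D-box TTATGTAA was in 0.593% and 0.999%.

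Downstream of the receptors, 13 of 35 genes of the PI3K, Akt and mTOR pathway were higher and 2 lower (median 0.17), with 1 lower without any of Con,SD arrays 2 and 6 and STZ,BEZ arrays 1, 2 and 3, and 8 higher without Con,SD arrays 1, 3 and 4. Trib1, a pseudokinase, read 6.20 to 6.95 (median 6.61) in controls and 7.10, 7.45, 7.13, 7.32 and 7.05 in STZ,BEZ muscle, without overlap, and rose by 0.59 ± 0.11 (adjusted p = 0.00188). Pik3ca, a catalytic subunit of PI3K, rose by 0.30 ± 0.06 (adjusted p = 0.004). Eif4e, which binds the mRNA cap, fell by 0.43 on the log2 scale (SE 0.08, adjusted p = 0.00165), with every STZ,BEZ value (8.90 to 9.05) under the controls (9.26 to 9.56), and differed by -0.19 when its probe sets were averaged. Of 16 AMPK subunits and upstream kinases 2 were higher and 1 lower (12.5% and 6.25%, median -0.03), near the shares over all genes. Their higher calls were 4 without Con,SD array 5 or 7 and 1 without any of Con,SD arrays 3 and 4 and STZ,BEZ array 5, their lower calls 2 without Con,SD array 4, and 0 higher and 3 lower were left without Con,SD arrays 1, 3 and 4.

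Among genes of glucose handling, the lower members of the glycolysis list stood out from the share over all genes. Of 30 genes of glycolysis, glycogen and lactate, 3 were higher and 9 lower (10% and 30%, median -0.07), beside 13.1% and 8.45% of all genes. Of 20 glucose transporter and traffic genes 2 were higher and 3 lower (10% and 15%, median 0.04), nearer those shares. The lower calls of this second list numbered 1 without STZ,BEZ array 1 or 5. Tbc1d4, a Rab GTPase-activating protein that holds back transporter vesicles until Akt acts on it, read 7.95 to 8.50 (median 8.16) in controls and 8.92, 9.34, 8.80, 9.56 and 9.80 in STZ,BEZ muscle. It was higher on all 5 arrays, by 1.11 ± 0.20 (adjusted p = 0.00154). Pfkfb3, which makes an activator of phosphofructokinase, read 10.45 to 11.35 (median 11.07) against 11.64, 11.80, 11.80, 11.86 and 11.57, without overlap (0.78 ± 0.15, adjusted p = 0.00179). Ldha, the muscle lactate dehydrogenase, fell by 0.25 (SE 0.05, adjusted p = 0.00466), from 13.60 to 13.78 in controls to 13.44 to 13.50, and differed by -0.16 after a second quantile normalisation. Slc2a4, the insulin-responsive glucose transporter GLUT4, gave -0.18 (95% interval -0.34 to -0.02; adjusted p = 0.129) and was called lower without Con,SD array 4 (-0.20), STZ,BEZ array 3 (-0.22), STZ,SD array 5 (-0.18) or Con,SD arrays 1, 3 and 4 (-0.25). Hk2, a hexokinase, gave -0.05 (-0.26 to 0.17).

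FoxO factors and their targets were higher in STZ,BEZ muscle. Of 22 list members 10 were higher and 0 lower (median 0.35), and 8 were higher without Con,SD arrays 1, 3 and 4. Of the 10 higher members, Pdk4 and Cdkn1b overlapped the controls. The mean list level was 9.16 to 9.23 in controls, 9.45 to 9.81 in STZ,BEZ and 9.42 to 10.3 in STZ,SD muscle. Cited2, a coregulator that competes with HIF-1 for p300, read 9.92 to 10.27 (median 10.01) against 11.47, 11.48, 11.56, 11.03 and 10.72. No value overlapped, and the difference was 1.20 ± 0.13 (adjusted p = 2.56e-05, 2.29-fold). Foxo3 itself read 7.21 to 7.54 (median 7.30) against 7.90, 8.09, 8.02, 7.88 and 8.07 (0.62 ± 0.11, adjusted p = 0.00145). Gadd45a, a stress protein of atrophying muscle, rose by 0.59 ± 0.12 (adjusted p = 0.00345). Foxo1, chosen after its values were seen, rose by 0.53 ± 0.14 (adjusted p = 0.0181).

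Glucocorticoid response genes shared members with the FoxO list, namely Klf15, Cebpd, Pdk4 and Sesn1. Of 22 such genes, 7 were higher and 0 lower (median 0.31). There were 4 higher without STZ,BEZ array 4 or 5, 2 lower without Con,SD array 1 or 4, and 4 higher and 2 lower without Con,SD arrays 1, 3 and 4. Klf15, a factor that raises amino acid breakdown, read 8.07 to 8.32 (median 8.20) in controls and 8.71, 8.82, 8.84, 9.01 and 9.42 in STZ,BEZ muscle, without overlap (0.75 ± 0.18, adjusted p = 0.00796). Sesn1, a sestrin that restrains mTORC1, read 8.27 to 8.75 (median 8.52) against 9.18, 9.36, 9.26, 9.54 and 9.74 (0.92 ± 0.22, adjusted p = 0.0102). Every STZ,BEZ value of both genes lay above the controls, and STZ,SD muscle spanned a wider range, 8.59 to 9.92 for Klf15 and 9.0 to 10.84 for Sesn1. Among 21 clock genes 3 were higher and 0 lower (median 0.09), and the 14.3% higher was near the 13.1% of all genes. There was 1 higher without any of STZ,BEZ arrays 2, 4 and 5 and 2 in each direction without Con,SD arrays 1, 3 and 4. Csnk1e, a kinase of the PER proteins, rose by 0.44 ± 0.08 (adjusted p = 0.00183).

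Of the protein breakdown systems, ubiquitin ligases and the proteasome went in opposite directions. Of 23 ligases of muscle wasting 6 were higher and 0 lower (median 0.13), whereas of 37 proteasome genes 1 was higher and 18 were lower (median -0.20), beside 13.1% and 8.45% of all genes. Without Con,SD arrays 1, 3 and 4 the counts were 4 higher and 0 lower, and 1 higher and 13 lower. Huwe1, a large ligase, read 9.98 to 10.11 (median 10.01) in controls and 10.31, 10.37, 10.29, 10.40 and 10.40 in STZ,BEZ muscle, without overlap (0.31 ± 0.05, adjusted p = 0.000274). Fbxo30, a ligase component that rises in atrophy, rose by 0.37 ± 0.05 (adjusted p = 0.000287). The best-known atrophy ligases, Fbxo32 and Trim63, were chosen after their values were seen and gave 0.15 (95% interval -0.34 to 0.64; adjusted p = 0.704) and 0.14 (-0.24 to 0.51; adjusted p = 0.637).

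Psmb4, a subunit of the proteasome's catalytic core, read 10.98 to 11.74 (median 11.59) in controls and 10.73, 10.58, 10.97, 10.80 and 10.60 in STZ,BEZ muscle. All 5 values lay under the controls, and the gene fell by 0.80 on the log2 scale (SE 0.11, adjusted p = 0.000138). Psmd2, a scaffold of the regulatory cap, read 11.24 to 11.78 (median 11.58) against 10.88, 10.79, 11.01, 10.95 and 10.84, and fell by 0.67 (SE 0.08, adjusted p = 3.17e-05) without overlap. Psmd14, the deubiquitinase of the cap, fell by 0.52 (SE 0.08, adjusted p = 0.000427). Of 36 autophagy and lysosome genes 7 were higher and 5 lower (median 0.04). Map1lc3a, an LC3 protein of autophagosomes, rose by 0.48 ± 0.07 (adjusted p = 0.000177), Tfeb, the regulator of lysosomal genes, rose by 0.38 ± 0.07 (adjusted p = 0.00115), and Ctsd, a lysosomal protease, fell by 0.49 (SE 0.06, adjusted p = 8.91e-05), each without overlap. The lower calls of this list numbered 3 without any of Con,SD array 5 and STZ,BEZ arrays 1, 2, 4 and 5, and without Con,SD arrays 1, 3 and 4 together.

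**Figure D5:**
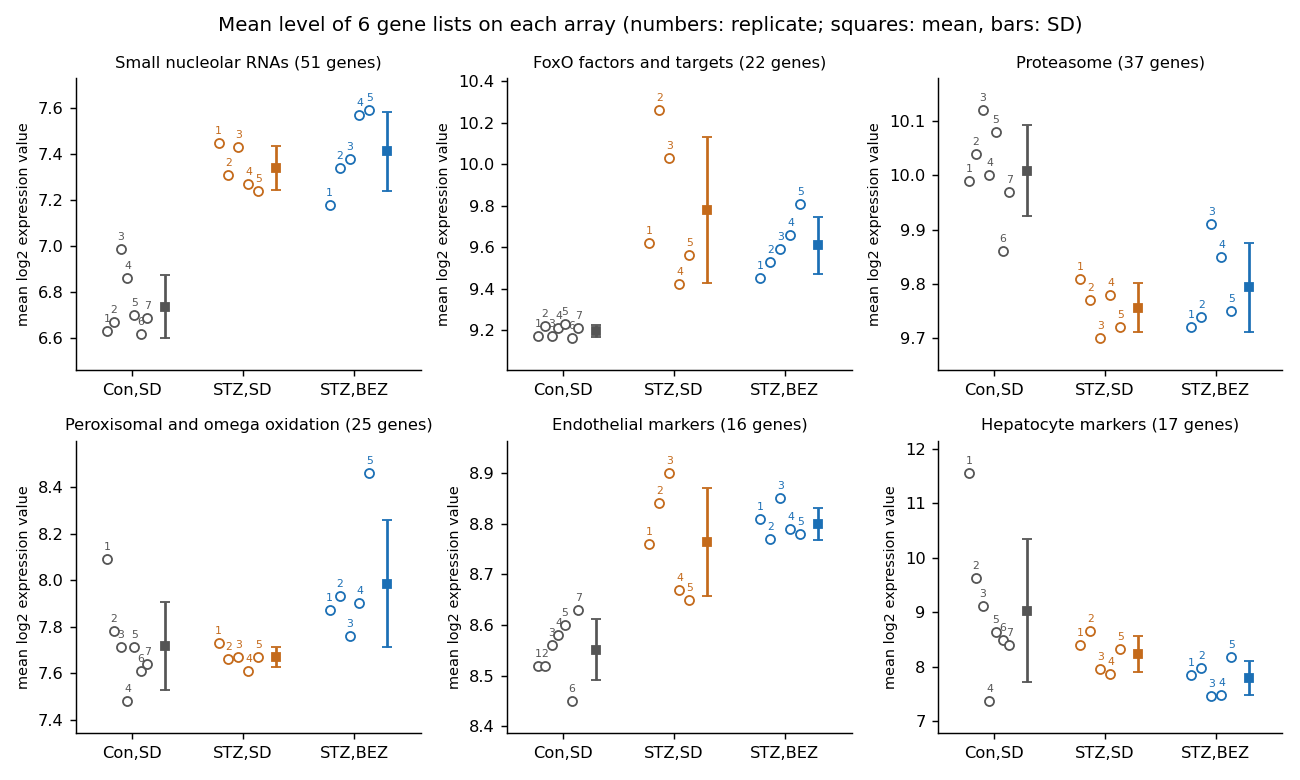
Mean log2 expression value of the members of 6 gene lists on each array (vertical axis), with the replicate number beside each point; squares and bars are the mean and SD of each group. Levels of small nucleolar RNAs and of FoxO factors and targets lie above the controls in both insulin-deficient groups, proteasome levels lie lower apart from overlap with control array 6, STZ,BEZ array 5 is highest for the peroxisomal list, and control array 1 is highest for hepatocyte markers.

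Mitochondrial genes of the TCA cycle, the respiratory chain and the mitochondrial ribosome were more often lower than higher. The TCA list had 4 higher and 9 lower of 27 (median -0.10), with 2 higher without STZ,BEZ array 2 or 4. Complex I had 2 and 9 of 34 (median -0.02; 1 higher without any of Con,SD arrays 1, 2, 5 and 6 and STZ,BEZ arrays 3, 4 and 5), complexes III and IV with ATP synthase 4 and 9 of 38 (median below 0.01 in size), and mitochondrial ribosomal proteins 9 and 21 of 77 (median -0.03). Without Con,SD arrays 1, 3 and 4 these were 3 and 7, 4 and 5, 5 and 8, and 6 and 15. Idh3a, a subunit of NAD-dependent isocitrate dehydrogenase, read 12.10 to 12.51 (median 12.44) in controls and 11.89, 11.71, 11.99, 11.97 and 11.68 in STZ,BEZ muscle. All 5 values lay lower, and the difference was -0.54 ± 0.09 (adjusted p = 0.00115). Fumarase, encoded by Fh1, read 11.04 to 11.54 (median 11.44) against 10.90, 10.73, 11.08, 10.95 and 10.70, overlapping on array 3, and fell by 0.51 (SE 0.09, adjusted p = 0.00109). Suclg1, a subunit of succinate-CoA ligase, went the other way and rose by 0.36 ± 0.08 (adjusted p = 0.00464).

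In complex I, Ndufs4 read 12.21 to 12.38 (median 12.27) in controls and 11.80, 11.72, 11.96, 11.76 and 11.69 in STZ,BEZ muscle, and fell by 0.49 (SE 0.07, adjusted p = 0.000151). Ndufb7 fell by 0.58 (SE 0.09, adjusted p = 0.000553), while Ndufa7 rose by 0.50 ± 0.06 (adjusted p = 4.58e-05), each without overlap. Mrps23, of the small mitochondrial ribosomal subunit, fell by 0.49 (SE 0.07, adjusted p = 0.000139), and Uqcrc2, a core protein of complex III, by 0.30 (SE 0.06, adjusted p = 0.00167). Cox6a2, the muscle form of a complex IV subunit, rose by 0.27 ± 0.05 (adjusted p = 0.00129). The 9 higher mitochondrial ribosomal proteins numbered 4 without STZ,BEZ array 3.

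Cytosolic ribosomal proteins were more often higher, 28 of 61 against 6 lower (median 0.15), and 30 against 4 without Con,SD arrays 1, 3 and 4. The lower calls were 3 without STZ,BEZ array 2 or 5. Rpl26 read 8.55 to 8.90 (median 8.68) in controls and 9.32, 9.52, 9.37, 9.29 and 9.44 in STZ,BEZ muscle, without overlap (0.68 ± 0.07, adjusted p = 1.23e-05). Rps28 rose by 0.69 ± 0.09 (adjusted p = 8.91e-05) and Rpl8 by 0.52 ± 0.07 (adjusted p = 0.000119). Ribosomal protein genes have many processed pseudogenes, which such probe sets may also detect.

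Of 13 genes on the list of growth hormone and STAT5 signalling, 6 were higher and 0 lower (median 0.20), and 4 were higher without Con,SD arrays 1, 3 and 4. Cish, a feedback inhibitor of cytokine receptors, read 6.83 to 8.57 (median 7.65) in controls and 9.36, 9.49, 9.44, 9.27 and 7.72 in STZ,BEZ muscle. Socs2, which limits growth hormone signalling, read 8.86 to 9.79 (median 9.27) against 10.37, 10.39, 10.34, 10.71 and 9.30. Arrays 1 to 4 lay above every control in both genes and array 5 lay within the control range. The differences were 1.48 ± 0.34 (adjusted p = 0.00713, 2.79-fold) and 0.96 ± 0.23 (adjusted p = 0.00929). Stat5b, the transcription factor, read 10.27 to 10.43 (median 10.39) against 10.71, 10.52, 10.72, 10.75 and 10.69, without overlap on any array (0.32 ± 0.06, adjusted p = 0.00118).

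Sarcomere genes of fast fibres were slightly lower, 7 of 19 with 0 higher (median -0.08), beside 8.45% lower and 13.1% higher over all genes. These 7 lay under every control array, as did 2.5% of all genes. Myl1, the fast essential light chain, read 13.58 to 13.85 (median 13.69) in controls and 13.28, 13.39, 13.23, 13.44 and 13.42 in STZ,BEZ muscle (-0.36 ± 0.06, adjusted p = 0.000499). Tmod4, which caps thin filaments, fell by 0.29 (SE 0.05, adjusted p = 0.000837). Of 19 slow fibre genes 1 was higher and 0 lower, although their median difference was 0.39, and 3 were higher without Con,SD array 7. Myh7, the slow myosin heavy chain, read 6.50 to 9.46 (median 7.40) against 8.71, 10.55, 8.95, 8.75 and 9.63, and its difference of 1.43 had an interval of 0.06 to 2.81 and an adjusted p of 0.152. Myh7 was called higher without Con,SD array 7 (1.69). The slow list level spanned 7.92 to 9.64 among controls, and the muscle sampled on each array is not given.

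Calcium handling had 5 higher and 2 lower of 25 (median 0.04), with 0 lower without STZ,BEZ array 2 and 3 higher and 2 lower (median -0.02) without Con,SD arrays 1, 3 and 4. Cacna1s, the voltage sensor of the T-tubule, was higher by 0.25 ± 0.05 (adjusted p = 0.00318). The acetylcholine receptor and denervation list had 7 higher and 0 lower of 22 (median 0.14), but 4 higher without any of Con,SD array 3 and STZ,BEZ arrays 2 and 3, and 4 higher and 2 lower without Con,SD arrays 1, 3 and 4. Its leading member Rapsn, which clusters the receptors, read 7.95 to 8.19 (median 8.15) in controls and 8.51, 8.73, 8.51, 8.55 and 8.39 in STZ,BEZ muscle, without overlap (0.42 ± 0.08, adjusted p = 0.00295). Satellite cell and myogenic factors had 6 higher and 0 lower of 22 (median 0.05), with 3 higher without STZ,BEZ array 5 and a median of -0.02 without Con,SD arrays 1, 3 and 4.

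The myostatin and activin list had 11 higher and 1 lower of 24 (median 0.17), and 8 and 2 without Con,SD arrays 1, 3 and 4. Smad1, which carries signals of bone morphogenetic proteins, read 7.03 to 7.23 (median 7.14) in controls and 7.54, 7.70, 7.68, 7.61 and 7.55 in STZ,BEZ muscle, without overlap (0.49 ± 0.05, adjusted p = 1.91e-05). Acvr2b, a receptor of myostatin, rose by 0.50 ± 0.07 (adjusted p = 0.000303) and lay above the controls on every array. The lower member, Mss51, is a muscle mitochondrial protein whose mRNA falls when myostatin is inhibited. It read 10.69 to 11.24 (median 10.86) against 9.49, 9.08, 9.27, 8.71 and 8.93, a difference of -1.82 (SE 0.24, adjusted p = 0.000138), or 3.52-fold, and the largest fall here of a gene on a list of muscle pathways. Mstn, myostatin itself, was chosen after its values were seen and gave 0.07 (95% interval -0.24 to 0.37).

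The list of TNF, IL-1, TLR and NF-kB inflammation had 13 higher and 2 lower of 37 (median 0.11), but 7 higher without STZ,BEZ array 4 and 6 without Con,SD arrays 1, 3 and 4. Without any of STZ,BEZ arrays 2, 4 and 5 there was 1 lower. The cytokines Tnf and Il1b gave 0.09 (95% interval -0.11 to 0.28) and 0.02 (-0.18 to 0.21). Il6st, the shared receptor of the interleukin-6 family, read 10.48 to 10.60 (median 10.50) in controls and 10.75 to 11.13 (median 10.96) in STZ,BEZ muscle, without overlap (0.40 ± 0.08, adjusted p = 0.0036). Of 34 interferon and antigen presentation genes 3 were higher and 4 lower (8.82% and 11.8%, median below 0.01 in size), near the shares over all genes. The higher calls were 0 or 1 without any of Con,SD arrays 3, 4 and 5 and STZ,BEZ arrays 2, 3 and 4, and the lower calls 2 without Con,SD array 2 or STZ,BEZ array 5. Without Con,SD arrays 1, 3 and 4 the list had 0 higher and 2 lower. Ifit3, an antiviral protein induced by interferon, read 7.52 to 8.09 (median 7.85) against 6.96, 6.94, 7.09, 6.79 and 7.03. It fell on all 5 arrays, by 0.85 (SE 0.11, adjusted p = 0.000139).

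Among stress lists, the oxygen sensing list had 5 higher and 0 lower of 16 (median 0.16), antioxidant and glutathione genes 4 and 6 of 30 (median -0.05), the unfolded protein and integrated stress response 7 and 1 of 30, and cytosolic heat shock proteins 3 and 4 of 22 (median -0.01). Egln3, a HIF prolyl hydroxylase that HIF itself induces, read 8.35 to 9.13 (median 8.60) in controls and 9.65, 9.76, 9.40, 10.14 and 10.33 in STZ,BEZ muscle, without overlap (1.21 ± 0.33, adjusted p = 0.0195). Gsta4, which clears lipid peroxidation products, read 9.0 to 9.60 (median 9.13) against 8.27, 8.16, 8.64, 8.46 and 7.97, and fell by 0.89 (SE 0.16, adjusted p = 0.00143). Chac1, a glutathione-degrading enzyme induced by ATF4, rose by 0.72 ± 0.17 (adjusted p = 0.00783). The lower heat shock calls numbered 1 without STZ,BEZ array 1 or 5 and 2 without any of Con,SD arrays 1, 3 and 6 and STZ,BEZ array 2, and those of the stress response 2 without STZ,SD array 5. The antioxidant list had 5 higher and 3 lower without Con,SD arrays 1, 3 and 4, and the heat shock list 1 higher and 2 lower. Of 31 collagen and matrix genes 2 were higher and 1 lower (median -0.09), with 2 lower without STZ,SD array 2 or STZ,BEZ array 1.

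For amino acids, breakdown of branched chains had 4 higher and 2 lower of 24 (16.7% and 8.33%, median 0.01), near the shares over all genes. There was 1 lower without STZ,BEZ array 1 or 3. Mmut, the methylmalonyl-CoA mutase, was higher by 0.33 ± 0.07 (adjusted p = 0.00388) and Acadsb, a branched acyl-CoA dehydrogenase, by 0.41 ± 0.09 (adjusted p = 0.00445), both without overlap. The list of the purine nucleotide cycle, urea cycle and fumarate had 0 higher and 4 lower of 17 (median -0.11), among them Ckmt2, the mitochondrial creatine kinase (-0.43 ± 0.10, adjusted p = 0.00781). Its level was 9.84 on Con,SD array 1 and 8.82 to 9.16 on the other controls. The list median was -0.05 without that array (6 lower) and 0.02 with the hepatocyte level as a covariate (3 lower). Without Con,SD arrays 1, 3 and 4 it was -0.09 (6 lower). Of 9 polyamine genes 0 were called in either direction.

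Imprinted growth genes had 8 higher and 1 lower of 16 (median 0.20), and 5 and 0 without Con,SD arrays 1, 3 and 4. Peg3, a paternally expressed zinc finger protein, read 7.53 to 8.18 (median 7.84) in controls and 8.72, 8.87, 8.21, 8.91 and 9.51 in STZ,BEZ muscle, without overlap (1.00 ± 0.21, adjusted p = 0.0036, 2.01-fold). Peg10 rose by 0.89 ± 0.17 (adjusted p = 0.00182) and overlapped the controls on array 3 alone. Cdkn1c, a maternally expressed inhibitor of the cell cycle, rose by 0.52 ± 0.10 (adjusted p = 0.00231).

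Small non-coding RNAs made up 4 of the 5 largest rises, beside Cyp4a14. Of 51 small nucleolar RNAs, which guide chemical modification of ribosomal RNA and sit mostly in introns of host genes, 39 were higher and 0 lower (median 0.59), and 37 without Con,SD arrays 1, 3 and 4. Snord47 read 5.09 to 6.72 (median 5.88) in controls and 7.48, 7.63, 7.86, 8.54 and 8.46 in STZ,BEZ muscle. No array overlapped, and the difference of 2.15 ± 0.24 (adjusted p = 2.37e-05, 4.45-fold) was the largest rise among the called genes. Snord33 read 5.49 to 6.53 (median 5.91) against 7.40, 7.85, 7.62, 7.90 and 8.11 (1.78 ± 0.15, adjusted p = 2.41e-06). Snora3 rose by 1.18 ± 0.09 (adjusted p = 2.46e-07), and n-R5s136, a 5S ribosomal RNA gene, by 1.78 ± 0.11 (adjusted p = 5.21e-08), both without overlap. The Y RNA Rny1 rose by 1.40 ± 0.23 (adjusted p = 0.000732), with STZ,BEZ array 1 (8.53) just inside the control range of 6.67 to 8.57. Rmrp, the RNA of an endonuclease that processes ribosomal RNA, was chosen after its values were seen and rose by 0.77 ± 0.07 (adjusted p = 5.93e-06). The mean level of the 51 RNAs was 6.62 to 6.99 in controls, 7.18 to 7.59 in STZ,BEZ and 7.24 to 7.45 in STZ,SD muscle. RNA quality or size selection of single extracts is not given, and its part in these values was not tested.

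MicroRNA precursors did not move as a class. Of 296 precursors measured, 27 were higher and 15 lower (9.12% and 5.07%, median -0.01), below the 13.1% and 8.45% of all genes. Their mean level was dim, 5.04 to 5.21 in controls and 5.11 to 5.20 in STZ,BEZ muscle, under the array medians of 6.22 to 6.32. The lower calls ranged from 8 without STZ,BEZ array 2 to 26 without Con,SD array 1, and without Con,SD arrays 1, 3 and 4 there were 17 higher and 16 lower. The mature sequences below are shown for 3 higher precursors, of which Mir100 was chosen after its values were seen, with the seed (bases 2 to 8) in capitals (RefSeq, GRCm38.p6).
mmu-miR-99a-5p: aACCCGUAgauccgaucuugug
mmu-miR-100-5p: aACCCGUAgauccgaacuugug
mmu-miR-677-5p: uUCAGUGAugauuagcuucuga
The first pair shares its seed and differs at 1 of 22 positions, although miR-99a-5p lies at chr16:77598940-77598961 and miR-100-5p at chr9:41531437-41531458, both on the plus strand. The third, with another seed, lies at chr10:128085291-128085312. Mir99a read 5.28 to 5.67 (median 5.47) in controls and 6.17, 6.05, 5.75, 5.73 and 6.23 in STZ,BEZ muscle, without overlap (0.52 ± 0.10, adjusted p = 0.00233). Mir100 read 4.24 to 4.84 (median 4.40) against 4.75, 4.94, 4.83, 4.77 and 4.85, overlapping on 3 arrays (0.37 ± 0.09, adjusted p = 0.00913). Mir677 rose by 0.49 ± 0.09 (adjusted p = 0.00199) without overlap. Such probe sets measure the precursor or its host transcript in total RNA and not the mature strand.

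Markers of other cell types were counted in the same way. Endothelial markers were higher in 9 of 16 cases with 0 lower (median 0.23), and in 8 without Con,SD arrays 1, 3 and 4. Eng, an endothelial coreceptor of TGF-β, read 8.74 to 8.99 (median 8.86) in controls and 9.41, 9.29, 9.49, 9.34 and 9.32 in STZ,BEZ muscle, without overlap (0.52 ± 0.08, adjusted p = 0.000316). The endothelial list level was 8.45 to 8.63 in controls and 8.77 to 8.85 in STZ,BEZ muscle. Smooth muscle and pericyte markers had 3 higher and 0 lower of 12, Schwann cell and neuron markers 1 and 0 of 11, macrophage and leukocyte markers 0 and 1 of 15 (2 lower without Con,SD array 5 or STZ,BEZ array 1), testis markers 0 and 1 of 15 (5 lower without Con,SD array 1), fibroblast markers 0 of 11 in either direction, and red cell markers 0 of 4. Of 12 adipocyte markers 1 was lower and 0 higher, although 2 were lower without any of Con,SD arrays 5 and 7 and the 5 STZ,SD arrays, and 2 higher without Con,SD array 2 or STZ,BEZ array 3. The lower one was Lep, the leptin gene, which read 6.58 to 8.91 (median 7.14) in controls and 5.93, 6.10, 5.79, 6.28 and 5.50 in STZ,BEZ muscle, a difference of -1.41 (SE 0.32, adjusted p = 0.00643) without overlap. The adipocyte list level was 8.64 to 10.0 in controls and 8.44 to 9.44 in STZ,BEZ muscle.

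Liver transcripts made up 9 of the 10 largest falls among the called genes. Whether they came from liver tissue in the extracts was not tested. Hepatocyte markers had 10 lower and 0 higher of 17 (median -1.28). The lower calls were 3 without STZ,BEZ array 3 or 4, 4 without any of Con,SD arrays 2 and 3 and STZ,BEZ array 2, 6 without STZ,BEZ array 1, 16 without Con,SD array 4, 15 without Con,SD arrays 1, 3 and 4 and 12 without Con,SD array 1 (median -0.82). Mup3, a major urinary protein made by liver, read 7.04 to 11.84 (median 8.52) in controls and 6.59, 6.74, 6.45, 6.24 and 6.53 in STZ,BEZ muscle. No array overlapped, and the difference was -2.43 (SE 0.57, adjusted p = 0.00836), or -1.95 without Con,SD array 1. Alb, the albumin gene, read 10.87 to 13.79 (median 12.32) against 10.94, 10.93, 10.49, 10.48 and 11.39, a difference of -1.56 (SE 0.34, adjusted p = 0.0049). The other genes among the 10 largest falls, apart from Mss51, were Serpina1c, Slc10a1, Ugt2b1, Bhmt, Ces3a, Cyp3a25, Cyp2f2 and Cyp4a12a, all known from liver. Their differences of -2.38 to -1.70 were -1.94 to -1.19 without Con,SD array 1. Ugt2b1 differed by -1.84, by -1.19 without Con,SD array 1 and by -1.15 without arrays 1, 3 and 4, and was not called without any of STZ,BEZ arrays 2 to 5.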

How the data were processed

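Total RNA of mouse skeletal muscle was extracted with a column kit and DNase, amplified and hybridised to Affymetrix Mouse Gene 1.0 ST arrays, 1 array per mouse. The authors made the deposited log2 values with RMA (background correction, quantile normalisation and probe summary) in Affymetrix Expression Console 1.2, per the labels and the submitters' processing notes. Quantile normalisation gives every array the same spread of values, so a shift shared by most genes would not be seen. The sources used here name no genome build for the probe annotation. Scanner files, detection p-values and scan dates were not used here, so no batch could be tested, and the number of arrays limits the precision.

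The table held 35556 probe sets, of which 21789 named 1 gene, 1621 named more and 12146 were unnamed. Probe sets with 1 symbol were kept, and for the 999 genes with several the one with the highest mean over all 17 arrays was used, which gave 19938 genes. Groups came from the labels, which call the arrays biological replicates. All 17 arrays entered 1 limma fit (limma 3.58.1, R 4.3.3) with a moderated test per contrast and Benjamini-Hochberg adjustment over all genes, called at an adjusted p under 0.1. Gene lists were described by counts and medians, without a test of the list. The fit was tested on simulated data.

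The members and gene lists were chosen with earlier results of these data known. The genes named are the 10 largest rises and 10 largest falls, up to 3 members of each list by adjusted p, a set of genes named in the study, the genes called against STZ,SD and the 5 highest and 5 lowest called genes by the difference from STZ,SD, with others named as chosen after their values were seen. Alternatives changed the normalisation, the filter on dim genes, the probe sets per gene, the arrays in the fit, the variance model, the array weights, the test, the threshold, the replicate block, the control arrays, a hepatocyte covariate and each array left out. The labels do not say that replicate numbers pair the arrays, and the main fit used no pairing. Correlations of same-numbered deviations lay between -0.085 and 0.083 for Con,SD with STZ,BEZ. They lay between -0.239 and -0.0317 for STZ,SD with STZ,BEZ. Differently numbered arrays were not compared, so a shared litter, day or batch was not tested. Promoter and microRNA sequences came from RefSeq tables. Python 3.11.15, pandas 2.3.3, numpy 2.4.6 and matplotlib 3.10.9 were used.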

Additional observations from a re-analysis of the deposited data

Results flagged for a closer look

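An array that stood apart from the rest of its group was found in 32 of 364 group levels of named genes and lists (Dixon's ratio), and chance alone gives about 1 in 20 groups. Con,SD array 1 accounted for 11 of them and STZ,BEZ array 5 for 6.

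Con,SD array 1 stood above the other controls for Ces3a (11.34), Cpt1a (8.92), Cyp3a25 (11.21), Ehhadh (8.44), Gsta4 (9.60), Insig1 (9.96) and Ugt2b1 (10.56), and below them for Tmod4 (12.98). The same array had the highest mean level of the SREBP and cholesterol list (8.43), the purine, urea cycle and fumarate list (9.84) and the testis markers (8.27). STZ,BEZ array 5 stood above its group for Cyp4a10 (8.10), Cyp4a14 (9.96), Ehhadh (9.52) and the peroxisomal list (8.46), and below it for Cish (7.72) and Socs2 (9.30).

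Con,SD array 6 was lowest of its group for Acadl (9.47), Fh1 (11.04), Pdhb (8.72), Psmb4 (10.98) and Uqcrc2 (12.71). Con,SD array 4 was low for Ctsd (11.87) and high for Peg10 (6.84), and Con,SD array 2 was high for Pparg (8.68). Among STZ,BEZ arrays, array 2 stood apart for Dgat2 (9.81) and Stat5b (10.52), and array 3 for Slc2a4 (11.47). Array 4 stood apart for Il1b (5.20), the purine, urea cycle and fumarate list (8.76) and the testis markers (5.28), and array 1 for the glucose transporter list (9.01).

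The difference from control muscle was not the same in STZ,BEZ and STZ,SD muscle for 4 genes by the direct test. STZ,BEZ exceeded STZ,SD by 2.39 for Scd1, 1.84 for Scd2, 1.16 for Srebf1 and 0.63 for Lpcat3.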

How the results depend on the processing

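The count of 4298 genes in STZ,BEZ against Con,SD muscle became 7408 (4247 higher, 3161 lower, 1226 at 1.5-fold or more) with every probe set as a row, where more features were tested, and 2795 (973 lower) at an adjusted p under 0.05. SAM gave 448 genes at 1.5-fold or more. Without Con,SD arrays 1, 3 and 4, 1569 genes were higher, and the cause was not tested. Leaving out 1 array gave 2998 to 4712 genes, with 1919 to 2644 higher and 1079 to 2160 lower; the 1079 came without STZ,BEZ array 2. The count of 4 genes against STZ,SD became 8 with only those 2 groups in the fit, 11 with array weights and 24 with SAM. With the replicate block 3825 genes were called against Con,SD and 5 against STZ,SD. The labels do not say what same-numbered arrays share. Over 127 named genes, no direction of a called gene turned, and 14 changed their call under at least 1 of the alternatives. Every other count over all genes stayed within 1.5 times its main value. Signal over background could not be assessed, so differences of dim probe sets such as Cyp4a10 may be understated.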
